A study of Mus musculus with 9 samples.

Results

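A set of 10 genes that dendritic cells switch on during homeostatic maturation were described in 3 dendritic cell subsets of the mouse spleen. They were Fscn1, Cacnb3, Anxa3, Tmem123, Cd83, Il4i1, Socs2, Relb, Traf1 and Birc3. The genes were chosen by symbol, and all 10 were found among the 14862 genes of the table. RNA was sequenced from cells sorted from spleens of C57Bl/6 mice, 8-12 weeks old, with no allele or treatment in the labels. The sorted groups were type 1 conventional dendritic cells (cDC1), type 2 conventional dendritic cells (cDC2) and a subset labelled mcDC, an abbreviation that the labels do not expand, with 3 libraries each and 9 in all. Whether each library is a separate animal or a pool is not stated, and the spread on which p-values rest may therefore be technical.

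Levels are in RPKM, a read count scaled by the length of the gene in kilobases and by the library's total in M reads, on which genes of different length can be compared. The mcDC libraries were the shallowest, at 5.14 to 8.22 M reads, against 9.68 to 11.0 M for cDC1 and 9.19 to 12.4 M for cDC2. At these depths, 1 read over 1 kb of gene length equals 0.0805 to 0.1945 RPKM. Markers of cDC1 (8 genes) summed to 1680 to 2040 RPKM in cDC1, 433 to 880 in mcDC and 204 to 253 in cDC2. Markers of cDC2 (8 genes) summed to 628 to 709 RPKM in cDC2, 337 to 581 in mcDC and 37 to 120 in cDC1. Genes shared by all dendritic cells (5 genes) summed to 5220 to 8230 RPKM across the libraries. The cDC1 and cDC2 labels were met by their markers, and the sums of mcDC libraries lay between on both lists. Not every marker did so. Batf3 (184 ± 56.8 RPKM), Esam (26.5 ± 2.45) and Dtx1 (87.6 ± 19.1) had their highest means in mcDC (SD, n = 3). Mgl2 had its lowest there, at 0.223 RPKM, and the other markers had means between. The sources used here name no defining marker of mcDC, so that label was not checked. In bulk libraries, fewer cells that hold a transcript and less of it per cell cannot be told apart.

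Dendritic cells mature both after microbial signals and in the steady state, when a few cells of each subset switch on a shared programme and move towards T cell zones. The programme includes fascin and other proteins of cell shape and motility, surface molecules such as CD83, brakes on cytokine signalling such as SOCS2, and parts of the NF-kB pathway. NF-kB has a classical arm built on RelA and c-Rel, and an alternative arm in which NIK and IKK alpha release RelB paired with p52. TRAF and IAP proteins set the strength of both arms below receptors of the TNF family.

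Promoter sequence is shown for Fscn1 and Cacnb3, the pair of genes whose levels ran most closely together, and for Traf1, which passed the test in no comparison of subsets. The RefSeq promoter table for GRCm38.p6 matched 6 of the 10 genes, with 8 start sites, and did not hold Anxa3, Cd83, Socs2 or Relb. Each window runs from 250 to 21 bases before the start site, 5′ to 3′ on the gene's strand. Capitals mark a cyclic AMP response element (CRE, TGACGTCA) or a TATA box (TATAAA).
Fscn1, chr5:142960105-142960334, plus strand: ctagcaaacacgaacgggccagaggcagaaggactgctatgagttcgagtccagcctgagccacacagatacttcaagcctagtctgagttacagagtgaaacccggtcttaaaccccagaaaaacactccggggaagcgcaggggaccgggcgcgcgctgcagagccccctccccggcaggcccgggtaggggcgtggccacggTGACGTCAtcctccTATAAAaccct
Cacnb3, first start site, chr15:98632078-98632307, plus strand: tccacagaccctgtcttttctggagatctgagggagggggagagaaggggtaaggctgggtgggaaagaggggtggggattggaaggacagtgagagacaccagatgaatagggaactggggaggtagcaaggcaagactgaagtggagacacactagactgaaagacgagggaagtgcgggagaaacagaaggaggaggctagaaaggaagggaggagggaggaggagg
Traf1, chr2:34961793-34962022, minus strand: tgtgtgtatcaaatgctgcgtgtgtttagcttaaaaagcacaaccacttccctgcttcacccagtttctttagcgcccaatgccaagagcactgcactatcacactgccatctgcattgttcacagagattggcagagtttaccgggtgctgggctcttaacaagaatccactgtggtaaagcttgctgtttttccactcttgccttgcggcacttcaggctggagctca

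The Fscn1 window held a CRE beginning 45 bases before the start and a TATA box beginning 31 bases before it. On either strand, 1.28% of all 32851 promoter windows of the same length held the CRE and 11.8% held the TATA box. The Cacnb3 and Traf1 windows held no match to the 6 motifs searched. These were the CRE, the TATA box, the GC box (GGGCGG, in 29.8% of windows), the E box (CACGTG, in 5.35%), the interferon-gamma activated site to which STAT proteins bind (TTCNNNGAA, in 6.48%) and the NF-kB consensus known as kappa B (in 6.68%). The GC box was found in windows of 3 of the 6 genes matched, Il4i1, Tmem123 and the other start site of Cacnb3. No window of the 8 held the letters of the kappa B consensus, the STAT site or the E box, which says only that they are not in these bases. A match describes letters and not a bound site. The deposited values carry no coordinates and were made on another build, mm8, so none is tied to these windows, and the motifs were chosen with the sequences and levels in view.

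Of the genes of cell shape and membrane, Fscn1, Cacnb3 and Anxa3 were graded, highest in cDC1, intermediate in mcDC and lowest in cDC2. Tmem123 was abundant in every library. Fscn1 (14086) encodes fascin, which bundles actin filaments into the protrusions of mature dendritic cells. In replicates 1, 2 and 3, Fscn1 stood at 179, 207 and 164 RPKM in cDC1, at 129, 82.8 and 70.0 RPKM in mcDC and at 74.9, 36.7 and 32.4 RPKM in cDC2. Every cDC1 library lay above every other library, while cDC2 replicate 1 lay above mcDC replicate 3. The means were 183 ± 21.7 RPKM in cDC1, 94.0 ± 31.1 in mcDC and 48.0 ± 23.4 in cDC2 (SD, n = 3), a ratio of 3.82 between cDC1 and cDC2.

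Cacnb3 (12297) encodes the beta 3 subunit of voltage-gated calcium channels, a cytoplasmic subunit that binds the pore-forming chain. Its levels in replicates 1, 2 and 3 were 192, 267 and 193 RPKM in cDC1, 86.6, 64.2 and 57.6 RPKM in mcDC and 50.2, 23.3 and 19.8 RPKM in cDC2. The 3 subsets did not overlap. With means of 217 ± 42.7, 69.5 ± 15.2 and 31.1 ± 16.6 RPKM (SD, n = 3), the ratio of cDC1 to cDC2 was 6.99, the highest of the 10 genes.

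Anxa3 (11745) encodes annexin A3, which binds membrane phospholipids in the presence of calcium. It was measured at 97.8, 99.1 and 74.6 RPKM in replicates 1, 2 and 3 of cDC1, at 72.2, 62.1 and 67.1 RPKM in mcDC and at 38.4, 27.6 and 24.1 RPKM in cDC2. The subsets again did not overlap, though cDC1 replicate 3 lay close to mcDC replicate 1. Means were 90.5 ± 13.8 RPKM in cDC1, 67.1 ± 5.06 in mcDC and 30 ± 7.45 in cDC2 (SD, n = 3). Tmem123 (71929), which encodes a mucin-like membrane protein, ranged from 218 to 265 RPKM in cDC1, from 156 to 271 RPKM in mcDC and from 141 to 228 RPKM in cDC2. These ranges overlapped between all subsets. Its mean level exceeded that of 98.0% of the 11971 genes tested.

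**Figure D1:**
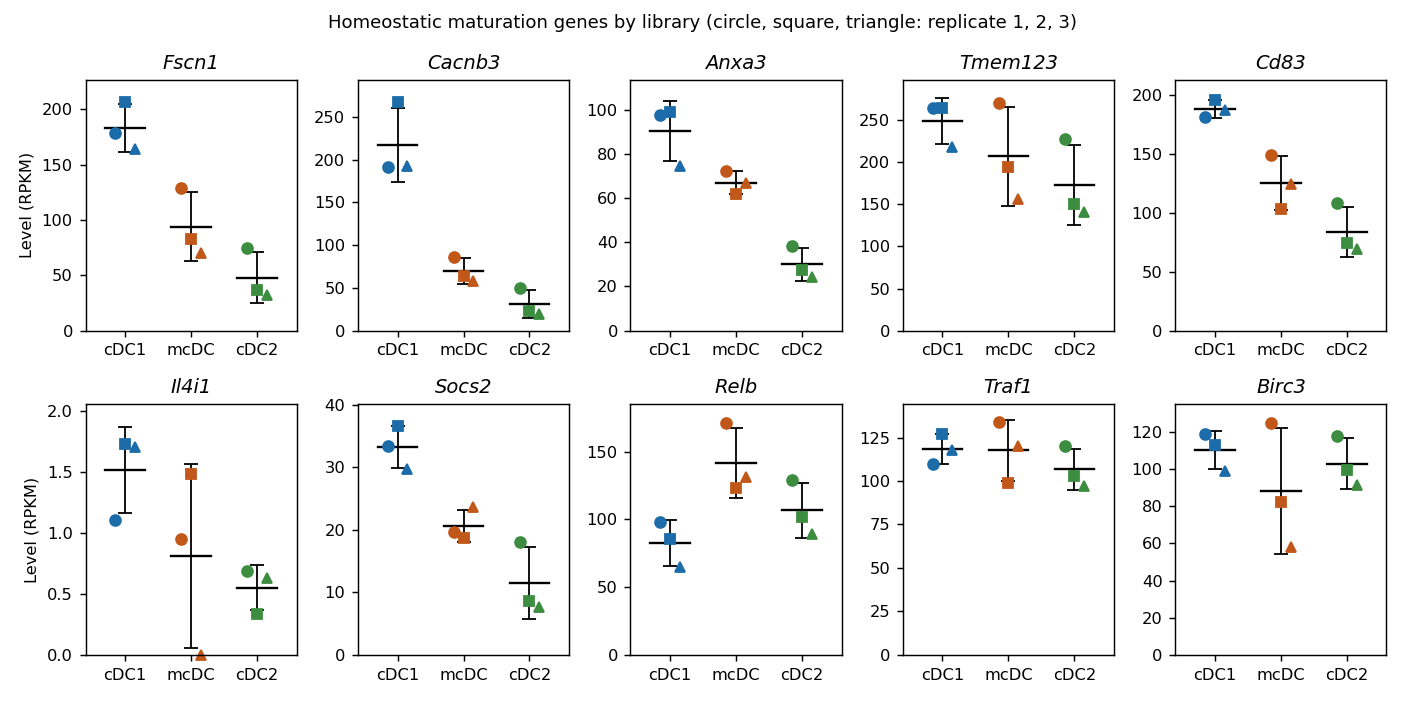
Level of each gene in RPKM (vertical axes, each from 0 and on its own scale) in cDC1, mcDC and cDC2, with 1 point per library, a line at the mean and bars of 1 SD over 3 libraries. Fscn1, Cacnb3, Anxa3, Cd83 and Socs2 step down from cDC1 to cDC2, Relb has its highest mean in mcDC, and Il4i1 stays below 2 RPKM.

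Among genes that act on antigen presentation and cytokine signals, Cd83 and Socs2 were graded in the same order. Cd83 (12522) encodes a surface protein of mature dendritic cells that protects MHC class II and CD86 from the ubiquitin ligase MARCH1. Its levels in replicates 1, 2 and 3 were 181, 196 and 187 RPKM in cDC1, 149, 103 and 124 RPKM in mcDC and 108, 73.9 and 69.6 RPKM in cDC2. The cDC1 libraries lay above all others, and cDC2 replicate 1 lay within the range of mcDC. Means were 188 ± 7.19 RPKM in cDC1, 125 ± 22.7 in mcDC and 83.7 ± 20.9 in cDC2 (SD, n = 3).

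Socs2 (216233) encodes a suppressor that damps signals of growth hormone and of cytokines that use JAK and STAT proteins. Levels in replicates 1, 2 and 3 were 33.4, 36.6 and 29.8 RPKM in cDC1, 19.7, 18.7 and 23.6 RPKM in mcDC and 18.1, 8.62 and 7.64 RPKM in cDC2. The subsets did not overlap, although the highest cDC2 library came within 1 RPKM of the lowest mcDC library. The means were 33.3 ± 3.42, 20.7 ± 2.55 and 11.5 ± 5.79 RPKM (SD, n = 3).

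Il4i1 (14204) encodes a secreted amino acid oxidase that consumes phenylalanine and other aromatic amino acids. It was the only one of the 10 at a low level in these libraries, above 5.1% of the genes tested by its mean. It was covered by 25, 39 and 34 reads in cDC1, by 13, 8 and 16 in cDC2 and by 16, 17 and 0 in mcDC. In RPKM these were 1.11, 1.73 and 1.71, then 0.69, 0.339 and 0.628, and then 0.949, 1.49 and 0. Each cDC1 library lay above each cDC2 library, and mcDC spanned both. In mcDC replicate 3, the library of fewest reads, the count of 0 allows up to 0.285 RPKM (3 reads, counting error only). In the reference gene table Il4i1 overlaps Tbc1d17 and Il4i1b. Whether the counting used strand is not given in the sources used here, so reads shared with those genes cannot be told apart.

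The genes of the NF-kB and TNF receptor pathway did not follow the grading. Relb (19698), the RelB subunit, had its highest mean in mcDC and its lowest in cDC1. In replicates 1, 2 and 3 it was measured at 171, 123 and 131 RPKM in mcDC, at 129, 102 and 89.1 RPKM in cDC2 and at 97.9, 85.3 and 64.8 RPKM in cDC1. All mcDC libraries lay above all cDC1 libraries, and cDC2 overlapped both. Means were 141 ± 25.9, 107 ± 20.6 and 82.7 ± 16.7 RPKM (SD, n = 3).

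Traf1 (22029) encodes an adaptor of TNF receptors that is itself a target of NF-kB, and was nearly level across subsets. It ranged from 110 to 127 RPKM in cDC1, from 98.8 to 134 RPKM in mcDC and from 97.1 to 120 RPKM in cDC2. Birc3 (11796), which encodes the ubiquitin ligase cIAP2, ranged from 99.2 to 119 RPKM in cDC1, from 91.3 to 118 RPKM in cDC2 and from 57.8 to 125 RPKM in mcDC. Both genes overlapped between all subsets. The mcDC libraries had the widest spread of Birc3, with 125, 82.2 and 57.8 RPKM in replicates 1, 2 and 3. Birc2, its close relative and neighbour on chromosome 9, was lower, at 48.6 ± 5.60 RPKM in cDC1, 36.4 ± 5.97 in cDC2 and 45.2 ± 16.1 in mcDC (SD, n = 3). Reads from stretches that Birc2 and Birc3 share could have been split or dropped in the authors' counting, so the division between them is uncertain.

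Differences were tested with limma on log2(RPKM + 1), in 1 fit of the 3 subsets over 11971 genes, with p-values adjusted by Benjamini and Hochberg over all of them. An exact permutation test of 3 libraries against 3 cannot give a p below 0.1 and was not used. The first comparison asks how the 2 conventional subsets differ. Of the 10 genes, 5 were higher in cDC1 than in cDC2. Of all genes tested, 19.6% were called, 8.85% higher and 10.7% lower in cDC1. Cacnb3 differed by 2.87 ± 0.31 on the log2 scale (SE, limma adjusted p = 0.00019). Fscn1 differed by 2.0 ± 0.31 (adjusted p = 0.0015), Anxa3 by 1.58 ± 0.18 (adjusted p = 0.00024), Socs2 by 1.55 ± 0.27 (adjusted p = 0.0027) and Cd83 by 1.18 ± 0.18 (adjusted p = 0.0015), each a log2 difference with its SE. These 5 calls stood under each of the 19 alternative settings run. The libraries of these 5 genes did not overlap, where 21.5% of all genes had every cDC1 library above every cDC2 library. Those of Il4i1 did not overlap either. It is left out of that count because it passed the filter on low values (above 1 RPKM in 2 or more libraries) only by its cDC1 levels.

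The other 5 genes did not pass in this comparison. Il4i1 differed by 0.69 ± 0.33 on the log2 scale (limma adjusted p = 0.19), with an interval of -0.04 to 1.43. The intervals, at a confidence level of 95%, ran from 0.03 to 1.08 for Tmem123 (adjusted p = 0.14), from -0.15 to 0.47 for Traf1, from -0.43 to 0.64 for Birc3 and from -0.81 to 0.08 for Relb, with negative values for lower levels in cDC1. Intervals are those of each gene alone. The median difference over the 10 genes, Il4i1 included, was 0.94, against -0.02 over all genes tested.

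In the comparison of mcDC with cDC1, 1 gene was higher and 1 lower in mcDC, and these were the NF-kB subunit Relb and the channel subunit Cacnb3. This split depended on scaling, since median-of-ratios scaling gave 3 genes called (Cacnb3, Fscn1 and Cd83) and quantile normalization 2 (Cacnb3 and Cd83), all lower in mcDC. Over all genes tested, 15.4% were called, 9.53% higher and 5.88% lower in mcDC. Cacnb3 fell by 1.63 ± 0.31 from cDC1 to mcDC on the log2 scale (limma adjusted p = 0.0072), and this call stood under each of 19 alternative settings. Relb was 0.77 ± 0.20 higher in mcDC on the same scale (adjusted p = 0.028). Its call was kept under 11 of the 19 settings. It was lost under each other scaling, at an adjusted p of 0.07 with quantile normalization, 0.058 with median-of-ratios scaling and 0.051 with voom, and with the 2 groups fitted alone (adjusted p = 0.056). It was also lost without cDC1 replicate 3 (adjusted p = 0.11), without cDC1 replicate 2 (adjusted p = 0.082), without mcDC replicate 1 (adjusted p = 0.061) and without cDC2 replicate 2 (adjusted p = 0.051), within a range of 0.0015 to 0.11 over the settings.

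Fscn1, Cd83, Anxa3, Socs2 and Cacnb3 had every mcDC library below every cDC1 library, 5 genes of 10 where 11.0% of all genes had this. Relb was the 1 gene with every mcDC library above every cDC1 library, as 19.5% of all genes were. The log2 differences that did not pass were -1.0 ± 0.31 for Fscn1 (limma adjusted p = 0.061), -0.60 ± 0.18 for Cd83 (adjusted p = 0.057), -0.66 ± 0.27 for Socs2 (adjusted p = 0.13) and -0.42 ± 0.18 for Anxa3 (adjusted p = 0.16). Without cDC2 replicate 1, which enters through the shared estimate of spread, 5 genes were called instead of 2, and without mcDC replicate 1 there were 4. When replicate 2 or 3 of cDC1, or replicate 2 of cDC2, was left out, the only call was that of Cacnb3. The median difference over the 10 genes was -0.49, against 0.09 over all genes tested. Median-of-ratios scaling moved that median of all genes by -0.121, and the share of all calls that were higher in mcDC from 61.8% to 46.5%. For mcDC against cDC2 that share moved from 56.4% to 42.8%. Fscn1 passed at an adjusted p of 0.038 and Cd83 at 0.027 under that scaling. The directions of Cacnb3 and Relb were the same under each scaling tried, while the call of Relb was not kept under any but the main one.

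Between mcDC and cDC2, Anxa3 alone was called, 1.16 ± 0.18 higher in mcDC on the log2 scale (limma adjusted p = 0.0083). Of all genes tested, 3.66% were called, 2.06% higher and 1.60% lower in mcDC. Without cDC2 replicate 2 the Anxa3 call was lost at an adjusted p of 0.051, in a range of 0.0029 to 0.051 over the settings. The log2 differences of the other graded genes were 1.23 ± 0.31 for Cacnb3 (adjusted p = 0.07), 1.01 ± 0.31 for Fscn1 (adjusted p = 0.13), 0.89 ± 0.27 for Socs2 (adjusted p = 0.12) and 0.59 ± 0.18 for Cd83 (adjusted p = 0.13). Without cDC2 replicate 1, 5 genes were called, with log2 differences of 1.63 for Cacnb3, 1.37 for Fscn1, 1.24 for Socs2 and 0.78 for Cd83, beside Anxa3. Cacnb3, Socs2 and Anxa3 had each mcDC library above each cDC2 library, 3 genes of 10 where 13.9% of all genes had this. The median difference over the 10 genes was 0.50, against 0.06 over all genes tested.

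**Figure D2:**
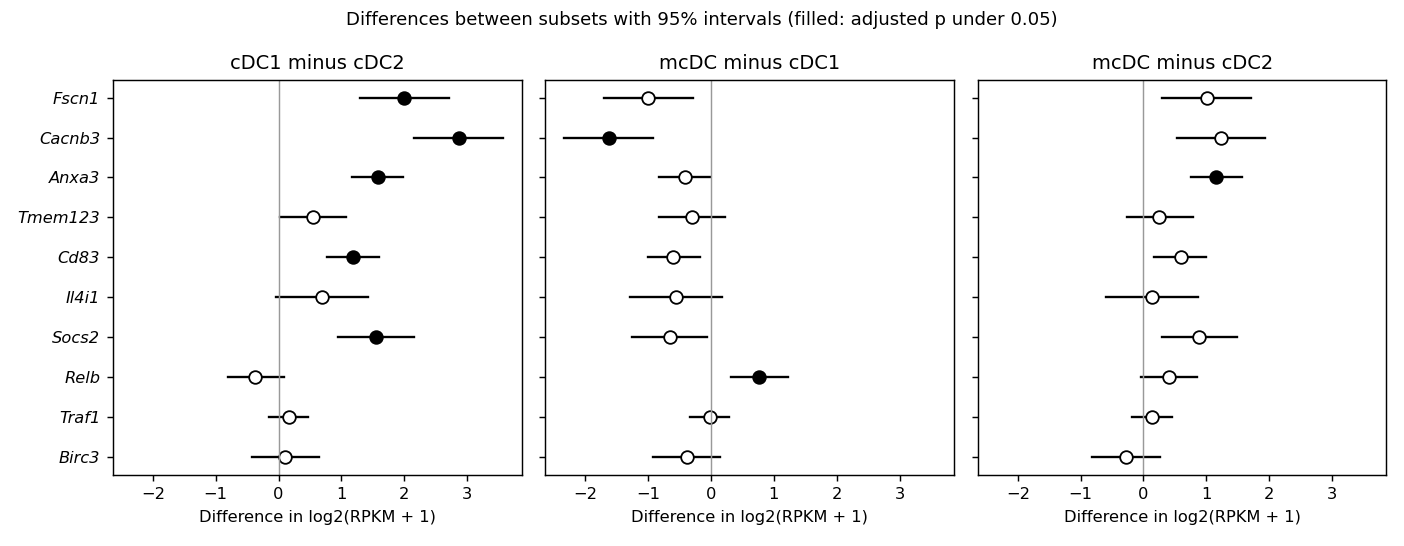
Difference in log2(RPKM + 1) between subsets (horizontal axes) for each gene, with bars for the interval at a confidence level of 95% and filled points for an adjusted p under 0.05. For cDC1 minus cDC2 the 5 graded genes lie between 1.18 and 2.87, while the bars of Traf1 and Birc3 cross 0 in all 3 panels.

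The 3 comparisons share libraries, so their values are read side by side. The order of means was cDC1, mcDC, cDC2 for 8 of the 10 genes, an order that 19.7% of all genes tested had. Il4i1 is among the 8, although it passed the filter only by its cDC1 levels. Traf1 is also among them, with nearly level means of 119 RPKM in cDC1, 118 in mcDC and 107 in cDC2. The 8 further include Tmem123, which overlapped between all subsets. Relb had mcDC, cDC2, cDC1, and Birc3 had cDC1, cDC2, mcDC. Cacnb3, Socs2 and Anxa3 kept the first order with no overlap between neighbouring subsets, 3 of 10 genes where 2.42% of all genes did. For Fscn1 and Cd83 the neighbours mcDC and cDC2 overlapped, and for Tmem123, Traf1, Birc3, Relb and Il4i1 all neighbours did.

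Ratios of genes within a library carry no scaling between libraries. Those given here were chosen after the values were seen. Cacnb3 stood at 1.97 to 3.12 times the RPKM of Relb in cDC1, at 0.44 to 0.524 times in mcDC and at 0.222 to 0.388 times in cDC2. Cd83 stood at 1.53 to 1.64 times the RPKM of Traf1 in cDC1, at 1.03 to 1.11 times in mcDC and at 0.717 to 0.901 times in cDC2. The subsets did not overlap in either ratio. Fscn1 over Traf1 did overlap, at 0.582 to 0.966 in mcDC and 0.333 to 0.626 in cDC2, as did Socs2 over Traf1, at 0.147 to 0.196 and 0.0787 to 0.151. Of 8 ratios computed, these were the 2 with overlap. For Birc3 over Birc2, the RPKM ratio was 2.75 to 2.92 in cDC2, 2.18 to 2.36 in cDC1 and 1.73 to 2.08 in mcDC, also without overlap.

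Within the subsets, the genes varied together by replicate. Replicate 1 held the highest level of all 10 genes in cDC2 and of 8 of 10 in mcDC, but of 2 of 10 in cDC1, Relb and Birc3. Over all genes tested, replicate 1 was highest in 37% in cDC2, 35.7% in mcDC and 40.9% in cDC1. In cDC2, replicate 1 stood above the mean of the other two by a factor of 2.33 for Cacnb3, 2.23 for Socs2 and 2.17 for Fscn1, against 1.24 for Birc3 and 1.20 for Traf1. In mcDC this factor was 1.78 for Birc3, 1.69 for Fscn1 and 0.931 for Socs2. Socs2 and Il4i1 were the pair of genes in mcDC that did not have their highest level in replicate 1.

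Other lists moved by replicate too. A list of 14 immediate early and stress genes summed to 5840, 3380 and 3670 RPKM in replicates 1, 2 and 3 of cDC2, to 6210, 3090 and 3080 RPKM in mcDC and to 3830, 2530 and 2600 RPKM in cDC1, highest in replicate 1 of each subset. Within that list the heat shock genes Hspa1a and Hspa1b were instead lowest in replicate 1 of each subset. In replicates 1, 2 and 3 of cDC2, Hspa1a stood at 87.7, 142 and 165 RPKM and Hspa1b at 111, 188 and 216 RPKM. A list of 13 neutrophil genes was also lowest in replicate 1 of cDC2, with sums of 197, 1020 and 1710 RPKM. In cDC1 the neutrophil sums were 15.0 to 48.9 RPKM and in mcDC 40.9 to 56.7 RPKM, with Camp at 0 in all mcDC libraries. In mcDC the cDC1 marker sum was lowest in replicate 1, at 433 RPKM against 704 and 880 RPKM. Library depth and 13 monocyte genes moved with the subsets, the latter at 362 to 562 RPKM in cDC1, 964 to 1130 in mcDC and 1810 to 2620 in cDC2. B cell genes (10), which mark cells that can also express Cd83, Traf1 and Relb, summed to 58.6 to 64.6 RPKM in cDC1, 61.2 to 105 in mcDC and 87.2 to 101 in cDC2. Erythroid genes (9) were lowest in replicate 1 of each subset, with sums of 6.28, 107 and 117 RPKM in cDC1, 13.4, 96.2 and 78.4 RPKM in mcDC and 6.07, 17.4 and 16.8 RPKM in cDC2. T cell genes (10) summed to 35.5 to 65.3 RPKM in cDC1, 43.5 to 68.4 in mcDC and 21.5 to 33.6 in cDC2. NK cell genes (8) summed to 80.6 to 145 RPKM in cDC1, 236 to 400 in mcDC and 190 to 226 in cDC2. Most of the cDC2 sum was Klrd1, at a mean of 165 RPKM there against 58.1 in cDC1. Ncr1, Nkg7, Eomes, Prf1 and Gzma had lower means in cDC2 than in cDC1, and Klrb1c and Gzmb were nearly level. Plasmacytoid dendritic cell genes (7) summed to 94.2 to 157 RPKM in cDC1, 109 to 209 in mcDC and 59.6 to 95.2 in cDC2. The part of these lists in the differences between subsets was not tested.

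**Figure D3:**
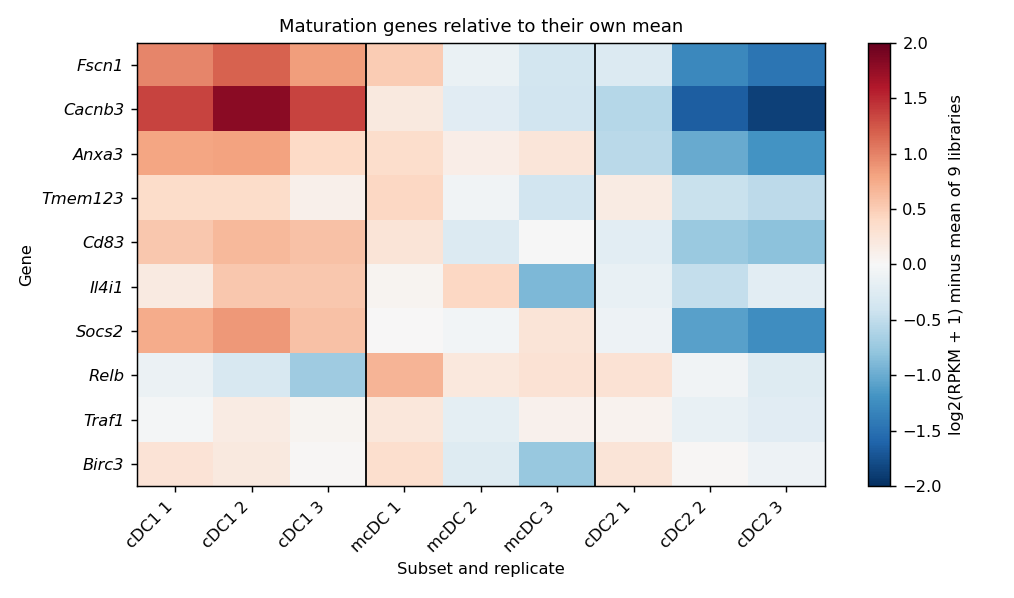
Each gene's log2(RPKM + 1) minus its own mean over the 9 libraries (colour scale from -2 to 2), with genes in rows and libraries in columns by subset and replicate. The 5 graded genes are high in all cDC1 libraries and low in cDC2 replicates 2 and 3, with cDC2 replicate 1 less low. Relb has its lowest mean in cDC1 and its highest in mcDC.

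As a description over 9 libraries, the 5 graded genes had Pearson correlations of 0.93 to 0.99 with each other on log2(RPKM + 1), the highest between Fscn1 and Cacnb3. After the subset means were taken out, these 10 pairs had correlations of 0.72 to 0.97. Relb had correlations of -0.30 to -0.03 with the same 5 genes over the libraries, and of 0.60 to 0.90 after the subset means were taken out. So Relb differed from them between subsets and ran with them among replicates. The 5 genes were grouped by their order and calls in these same libraries. Their correlations before the subset means were taken out, and those with Relb, follow in part from that choice. The points share library depth and the replicate pattern given above, and no p is attached.

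The gene most like Fscn1 over the 9 libraries, among 7876 other genes with a mean of at least 5 RPKM, was Ccr7 at a correlation of 0.991. Ccr7 encodes the receptor that guides mature dendritic cells to T cell zones. It was measured at 221, 263 and 209 RPKM in cDC1, 149, 68.8 and 75.3 RPKM in mcDC and 90.1, 33 and 30.8 RPKM in cDC2, high in the same replicates of mcDC and cDC2 as Fscn1. Cd83 was most like Spsb1 (0.991) and Ccr7 (0.988). Cacnb3 was most like Fam60a and Adcy6, both at 0.990. Adcy6 encodes an adenylyl cyclase and is the next gene to Cacnb3 on chromosome 15, at 76.4 ± 13.8 RPKM in cDC1, 16.7 ± 4.76 in mcDC and 8.39 ± 4.25 in cDC2 (SD, n = 3). Socs2 was most like Nudt17 (0.981) and Asprv1 (0.972), and Anxa3 most like Snn and Rasa2 (both 0.983). The most alike genes were Ehmt2 (0.982) and Ip6k1 (0.972) for Relb, Ntng2 (0.981) and Gfpt1 (0.976) for Birc3, Jag1 (0.969) and Vsig10 (0.967) for Tmem123, and Ergic2 (0.954) and Gmppa (0.944) for Il4i1. Traf1 had the least close match, with Fastk at 0.914 and Fbrs at 0.910.

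Other genes of mature dendritic cells had a median difference in the same direction as that of the 10 genes. Of the 32 tested, 20 were called, where 19.6% of all genes tested were. Of these 20, 17 were higher and 3 lower in cDC1 than in cDC2, with a median log2 difference over the list of 0.88. Ccl19, a gene of this list at 4.8 RPKM in cDC1 and 0.331 in cDC2, passed the filter on low values only through cDC1. The cytokine subunit Il12b was 4.28 ± 0.41 higher on the log2 scale (limma adjusted p = 8.9e-05), at 47.6 ± 7.60 against 1.57 ± 0.853 RPKM (SD, n = 3). The chemokine Ccl22, which draws cells that carry CCR4, was 3.32 ± 0.19 higher, at 58.8 ± 5.04 against 5.07 ± 1.50 RPKM. The T cell ligand genes Cd274 and Pdcd1lg2, for PD-L1 and PD-L2, were among the 3 lower in cDC1, by log2 differences of -1.12 and -2.05. Against cDC1, 4 genes were higher and 14 lower in mcDC, with a median of -0.72, where 15.4% of all genes were called. Il12b fell by 3.29 ± 0.41 from cDC1 to mcDC on the log2 scale (adjusted p = 0.00072), and Ccl22 by 3.23 ± 0.19.

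Between mcDC and cDC2, 6 of the 32 were called, all higher in mcDC, with a median log2 difference of 0.34, where 3.66% of all genes were called. Among them was Nudt17, the gene most like Socs2, at 35.8 ± 5.36 RPKM in cDC1, 19.3 ± 2.97 in mcDC and 7.65 ± 2.96 in cDC2 (SD, n = 3), which passed the test in all 3 comparisons. The costimulatory ligand Cd86 also passed in all 3, at 139 ± 8.95, 53.2 ± 8.00 and 33.4 ± 2.18 RPKM in the same order. By contrast, Ccl5 and Icosl, the most abundant of the genes on this list that did not pass, had means of 542 and 244 RPKM in mcDC, 423 and 196 in cDC1 and 330 and 177 in cDC2.

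**Figure D4:**
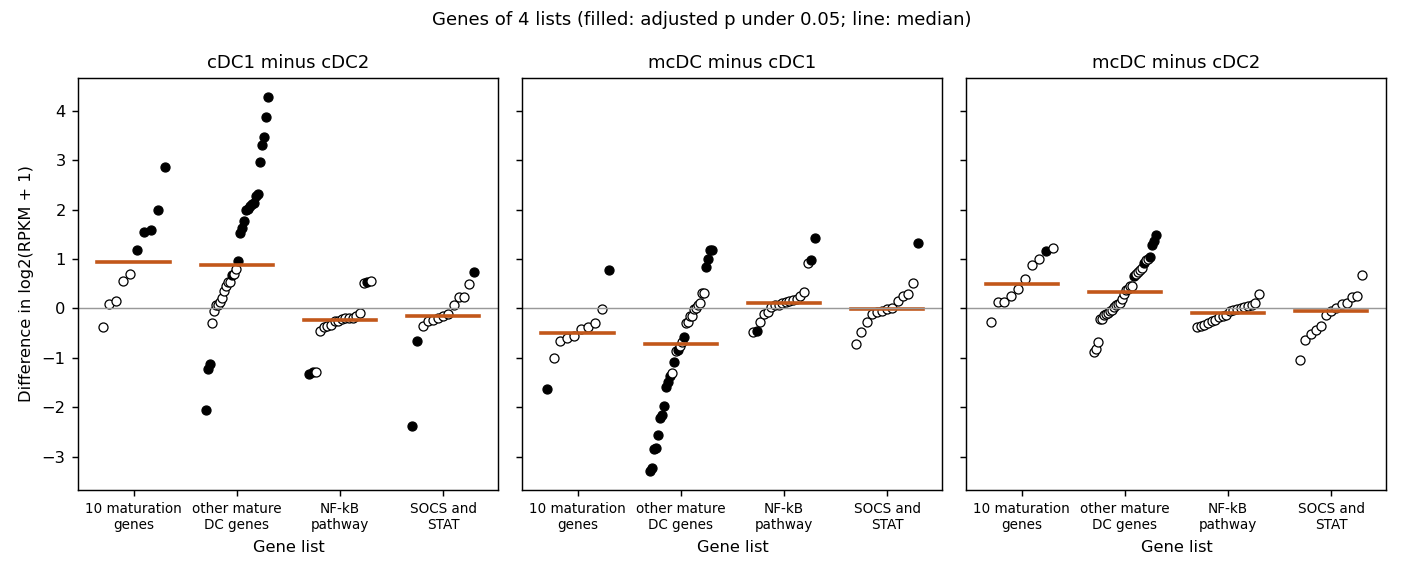
Difference in log2(RPKM + 1) between subsets (vertical axis) for the 10 maturation genes, 32 other mature dendritic cell genes, 18 NF-kB pathway genes and 13 SOCS, STAT and JAK genes, with 1 point per gene, filled for an adjusted p under 0.05, and a line at each list's median. For cDC1 minus cDC2 the medians are 0.94, 0.88, -0.23 and -0.15.

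In the NF-kB pathway, 1 of 18 genes tested was higher and 2 lower in cDC1 than in cDC2, with a median log2 difference of -0.23. These 3 of 18 are a share close to the 19.6% of all genes. Counts between cDC1 and cDC2 for the lists that follow have the same background. The 2 lower were Nfkb1, which encodes p105 and p50 of the classical arm, at 89.7 ± 27.7 against 213 ± 12.9 RPKM (-1.28 ± 0.23 on the log2 scale, limma adjusted p = 0.0039), and the p50 and p52 partner Bcl3, at 27.3 ± 4.54 against 71.6 ± 23.2 RPKM (-1.32, adjusted p = 0.0041). Both were higher in mcDC than in cDC1 as well, by 0.99 and 1.43 on the log2 scale. The inhibitor gene Nfkbib was 0.54 higher in cDC1 than in cDC2 on that scale, and fell by 0.46 from cDC1 to mcDC. Nfkb2, which encodes the p52 partner of RelB, was not called and stood at 74.0 ± 7.21 RPKM in cDC1, 87.8 ± 4.59 in cDC2 and 80.6 ± 13.5 in mcDC. Between mcDC and cDC2, where 3.66% of all genes were called, limma called 0 of the 18. Of the 18, 1 had an unadjusted limma p under 0.05, and voom called 0. Of 15 TRAF, IAP and associated genes, 1 was called between cDC1 and cDC2, the IAP gene Naip2, at 5.18 against 15.4 RPKM, whose close copies in the genome make its reads uncertain.

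Among relatives of Socs2, Socs3 ran opposite to it. Socs3, which limits signals of IL-6 family receptors, was 4.22 ± 1.22 RPKM in cDC1, 12.6 ± 5.57 in mcDC and 25.9 ± 4.72 in cDC2 (SD, n = 3). Its log2 difference was -2.38 ± 0.30 for cDC1 against cDC2 (limma adjusted p = 0.00047) and 1.33 for mcDC against cDC1 (adjusted p = 0.017). Of the 13 SOCS, STAT and JAK genes tested, 1 was higher and 2 were lower in cDC1 than in cDC2. The 1 higher was Socs1, at 4.25 against 2.19 RPKM, and the other lower gene was Stat5b, at 16.9 against 27.0 RPKM. Stat4, counted here among the mature dendritic cell genes, was also lower in cDC1, at 6.27 against 15.7 RPKM.

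Relatives of Cacnb3 and Anxa3 divided. Of 12 calcium channel genes listed in the table, 4 passed the filter on low values, and 3 of them were higher in cDC1 than in cDC2. Cacna1e, a pore-forming chain, was at 31.4 ± 2.43 RPKM in cDC1, 5.28 ± 2.71 in cDC2 and 5.98 ± 3.42 in mcDC, with a log2 difference of 2.45 ± 0.42 between cDC1 and cDC2 (limma adjusted p = 0.0026). Cacnb2 and Cacna1s, the others of the 3, were at 2.41 and 4.68 RPKM in cDC1. Cacnb2, at 0.21 RPKM in cDC2 and 0.303 in mcDC, passed the filter only through its cDC1 libraries. Its direction was therefore fixed by the filter and adds nothing to the count. Of 7 annexin genes, 1 was higher and 2 were lower in cDC1 than in cDC2. Unlike Anxa3, Anxa2 was lowest in cDC1, at 82.6 ± 16.4 RPKM, against 252 ± 45.9 in cDC2 and 390 ± 101 in mcDC. It was 2.21 higher in mcDC than in cDC1 on the log2 scale (limma adjusted p = 0.00028). Both annexin genes had a higher mean in mcDC than in cDC2.

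For the partners of Fscn1, Il4i1 and Cd83 the lists were mixed. Of 11 actin and cytoskeleton genes tested, 2 were higher and 2 lower in cDC1 than in cDC2. The actin crosslinker Actn1 was at 77.6 against 31.9 RPKM and the GTPase Rac2 at 59.4 against 148 RPKM, while Actb, the next gene to Fscn1, was at 3300 against 2560 RPKM and did not pass. Of 7 genes of amino acid catabolism and its receptor, 2 were higher and 1 lower in cDC1. Ido1, which breaks down tryptophan, was at 1.51 ± 0.505 RPKM in cDC1 and was listed at 0 in all cDC2 libraries. It passed the filter on low values only through cDC1, so its direction was fixed by the filter. Of 9 genes of MHC class II and its turnover, 1 was called between cDC1 and cDC2, the ubiquitin ligase gene March1 that CD83 opposes. It stood at 65.6 RPKM in cDC1, 46.4 in cDC2 and 41.7 in mcDC, and fell by 0.66 from cDC1 to mcDC on the log2 scale (limma adjusted p = 0.016).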

How the data were processed

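The authors deposited 1 table of RPKM values for 14862 genes in 9 libraries, with 8 files of single libraries that held the same values and none for mcDC replicate 3. The unit was read from the steps between values, which gave whole reads for 100% of nonzero values (within 0.001 reads). Per the labels' protocols, RNA was extracted with mir-VANA and libraries made with a directional kit. Per the submitters' processing notes the build was mm8. Aligner, counter and annotation are not given in the sources used here.

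The values log2(RPKM + 1) of the 3 groups entered 1 limma fit (version 3.58.1, R 4.3.3), with the prior variance following a trend, for 11971 genes that exceeded 1 RPKM in 2 or more libraries, among them all 10 genes described. The adjusted p threshold was 0.05, and the script was tested on simulated data. Fold changes on this scale understate those of low genes. There were 6 residual degrees of freedom, and the median SE was 0.209. Replicate numbers follow the runs of library titles.

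The genes, lists and motifs were chosen with earlier results of these data known. Named were all 10 genes, up to 4 called genes of each list with the largest change and up to 2 others with the highest RPKM, and for each of the 10 the 2 genes most like it. The design allowed for counts or RPKM, and the RPKM test was used. Names and neighbours come from a RefSeq table of GRCm38.p6, which held 14847 of the gene numbers. Alternatives were other scalings, pseudocounts, filters and fits, the title run as a block, and each library left out. Python 3.11.15 served for tables (pandas 2.3.3) and figures (matplotlib 3.10.9).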

Additional observations from a re-analysis of the deposited data

How the results depend on the processing

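Over the 30 differences of single genes, 519 of the alternative values kept their direction and side of the threshold, 33 passed it anew, 9 lost it and 6 reversed. The reversals were of uncalled differences near 0. Traf1 between mcDC and cDC1 reached 0.03 without cDC1 replicate 2 and 0.10 without mcDC replicate 2, on the log2 scale, in a range of -0.12 to 0.10 over the left-out libraries. Il4i1 between mcDC and cDC2 reached -0.01 under quantile normalization, -0.20 with a pseudocount of 0.1, -0.34 with voom and -0.15 without mcDC replicate 2, in a range of -0.15 to 0.51 over the left-out libraries. Il4i1 was not tested under the filter of 5 RPKM.

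Leaving out 1 library gave 5 to 6 of the 10 genes called between cDC1 and cDC2, 1 to 5 between mcDC and cDC1, and 0 to 5 between mcDC and cDC2, where the 0 came with cDC2 replicate 2 left out. Voom called 4 between mcDC and cDC1, all lower in mcDC. The causes were not tested.

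Replicate numbers share only a title run. Over 8358 genes, deviations of same-run libraries correlated at 0.07 to 0.55 in 9 pairs, 8 of them above 0.1, and those of other pairs at -0.55 to 0.01. Each of the 9 libraries correlated best with its own run, a hint from the data and not from the design. With the title run as a replicate block, 7 genes were called between cDC1 and cDC2 (6 higher, 1 lower), 4 between mcDC and cDC1 and 3 between mcDC and cDC2, where 24.6%, 20.7% and 6.46% of all genes were. The calls gained were Tmem123 (limma adjusted p = 0.015) and Relb (0.035) between cDC1 and cDC2, Fscn1 (0.012) and Cd83 (0.023) between mcDC and cDC1, and Fscn1 (0.031) and Cacnb3 (0.029) between mcDC and cDC2. With the replicate block and mcDC replicate 3 left out, 8, 6 and 1 were called, where 35.7%, 25.1% and 6.03% of all genes were.

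Calls over all genes moved by over 1.5 times in several fits. From 2344 between cDC1 and cDC2, they went to 3724 with the 2 groups alone, 4275 with the block without mcDC replicate 3 and 1552 without cDC1 replicate 2. From 1845 between mcDC and cDC1, the same settings gave 1097, 3005 and 957, and leaving out cDC1 replicate 3 gave 1135. From 438 between mcDC and cDC2, they went to 243 with the 2 groups alone, 773 with the block and 722 with the block without mcDC replicate 3. There, leaving out 1 library gave 158 to 888. Depth limited Il4i1 most, at no more than 39 reads in any library.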
